A study of Homo sapiens with 6 samples.

Results

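The YAP pathway was described here through 10 genes, taken by name from the rows of the deposited count table: the coactivators YAP1 and WWTR1 (which encodes TAZ), the transcription factors TEAD1 and TEAD4, the kinase LATS2, the scaffold AMOTL2 and the target genes CTGF, CYR61, ANKRD1 and FJX1. All 10 were found among 33835 rows that name a gene with values, and all 10 were among the 19433 genes with enough reads to be tested. The RNA came from DU145, an established human prostate cancer line grown in medium with 10% fetal calf serum. In the shE6AP group (3 libraries) cells were transduced with a short hairpin against E6AP, the ubiquitin ligase encoded by UBE3A; in the wobble group (3 libraries) they carried a control for that hairpin. Knockdown was induced with doxycycline at 0.2 µg/ml for 2.5 days, a treatment the labels give for both groups. The labels do not say whether either group is a pool or a clone, give the control's sequence or name separate cultures. The p-values therefore cover the spread among these 6 libraries only, and that spread may be technical. The study looked for genes that E6AP regulates at the transcript level.

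YAP and TAZ are coactivators that do not bind DNA themselves: they enter the nucleus and act through TEAD factors on genes of growth, adhesion and the cytoskeleton. In the Hippo pathway, the kinases STK3 and STK4 with their adaptor SAV1 activate LATS1 and LATS2 with their MOB1 adaptors, and LATS kinases phosphorylate YAP and TAZ, which keeps them in the cytoplasm. LATS2 and AMOTL2 are themselves described targets of YAP and TAZ, as parts of a negative feedback. Phosphorylation and location of the proteins are not visible in transcript counts.

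TEAD factors bind the bases GGAATG, read as CATTCC on the other strand, and this motif was searched on both strands in the 250 bases before each annotated start (RefSeq, GRCh38.p14, a later build than the hg19 of the counts). The table of starts held 9 windows for 7 of the members; TEAD1, TEAD4 and CYR61 had none. Matches stood in 4 of the 9 windows, those of CTGF (3 matches), ANKRD1 (2), AMOTL2 (1, at the second of its starts) and YAP1 (1). The nearer ANKRD1 match and the AMOTL2 match lie inside first exons that GENCODE release 29 starts farther upstream in these genes, so outside annotated exons 3 windows held a match, CTGF with 3, ANKRD1 with 1 and YAP1 with 1. Of 35116 full windows of 250 bases over all genes, with no exon bases removed, 11.9% held a match, 0.94% held at least 2 and 0.0826% at least 3. These shares belong beside the 4 of 9 full windows, not beside the count outside exons. The CTGF window at chr6:131951374-131951622 (minus strand, without the base that GENCODE release 29 places in the first exon) is shown because its 3 matches, in capitals, lie before the member that did not pass the test.
CTGF: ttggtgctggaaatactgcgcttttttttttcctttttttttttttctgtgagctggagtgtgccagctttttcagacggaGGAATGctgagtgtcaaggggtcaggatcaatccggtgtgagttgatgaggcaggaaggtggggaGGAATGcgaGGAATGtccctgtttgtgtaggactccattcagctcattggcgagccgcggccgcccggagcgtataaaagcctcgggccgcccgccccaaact

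The other matches are given with 10 bases on either side, read in the gene's direction, to set beside it. They begin 220 and 128 bases before the ANKRD1 start (chr10:90921292-90921317 and chr10:90921200-90921225, minus strand), 69 bases before the AMOTL2 start (chr3:134374501-134374526, minus strand) and 162 bases before the YAP1 start (chr11:102110275-102110300, plus strand).
ANKRD1, farther match: caccaccaaaGGAATGgccctctcac
ANKRD1, nearer match: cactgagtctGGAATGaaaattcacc
AMOTL2: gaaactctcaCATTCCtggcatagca
YAP1: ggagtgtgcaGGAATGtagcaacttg

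No match lay in the windows of WWTR1, LATS2 or FJX1. The AP-1 motif TGANTCA, of the factors that often bind beside TEADs, had 1 match among the members, in the ANKRD1 window, against 6.57% of all windows, and the CArG box bound by SRF had none, against 1.16%. A match describes these letters only and is not a measured binding site.

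Libraries held 21558506 to 30488217 reads assigned to genes, and within a group the correlation of log2 CPM across genes was at least 0.99531. Levels are given in CPM, a gene's reads scaled to the library's total after TMM correction. UBE3A fell to 26.1% of its wobble level, with 406, 309 and 359 reads in shE6AP against 1637, 1602 and 1570 in wobble. The epithelial keratins KRT8 and KRT18 stood at 318 ± 5.42 and 351 ± 8.32 CPM in wobble (SD, n = 3). KLK2 and KLK3 were not analysed here. In the epithelial list (6 genes), 3 rose, namely KRT8, KRT18 and EPCAM, and 3 fell, namely KRT7, KRT19 and CDH1; its summed level was 2790 to 2930 CPM in wobble and 2160 to 2210 CPM in shE6AP. KRT7 carried that difference, since the other 5 summed to 918 to 948 CPM in wobble and 1050 to 1090 CPM in shE6AP. Over the 8 markers of blood, endothelial and fibroblast cells that could be measured, the sum was 46.6 to 51.3 CPM in wobble and 42.5 to 46.2 CPM in shE6AP, of which CD68 (fell) and COL1A1 (rose) made up most; PTPRC, VWF, CDH5 and DCN stayed under 0.4 CPM on average in both groups. The part of these shifts in the results below was not tested. In RNA from whole cultures, fewer cells with a transcript and less of it per cell cannot be told apart.

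Of the 10 members, 9 passed the test between groups, 6 higher in shE6AP (TEAD1, TEAD4, LATS2, AMOTL2, CYR61 and FJX1) and 3 lower (YAP1, WWTR1 and ANKRD1), and CTGF did not pass. The threshold was a Benjamini-Hochberg adjusted p under 0.05 over all tested genes in edgeR's quasi-likelihood test. It was passed by 59.0% of all tested genes, 28.6% higher and 30.4% lower, and by 77.7% of the 6996 genes whose mean CPM was at least that of the lowest member, TEAD4. Groups of libraries did not overlap for the same 9 members, against 62.6% of all tested genes. That share was not taken at the members' levels. The median log2 fold change of the members was 0.23, against 0.01 over all tested genes. Only FJX1 was at least doubled; 6.74% of tested genes passed with a doubling or halving.

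Much of the change in the members was modest. When edgeR's glmTreat asked for a fold above 1.2, 6 members were called, namely WWTR1, TEAD1, LATS2, CYR61, ANKRD1 and FJX1, and 29.0% of tested genes; for a fold above 1.5 it called FJX1 alone of the members and 9.29% of tested genes. These shares are of all tested genes and were not taken at the members' levels. Libraries of the same group lay close together, with a common biological coefficient of variation of 2.77%.

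**Figure D1:**
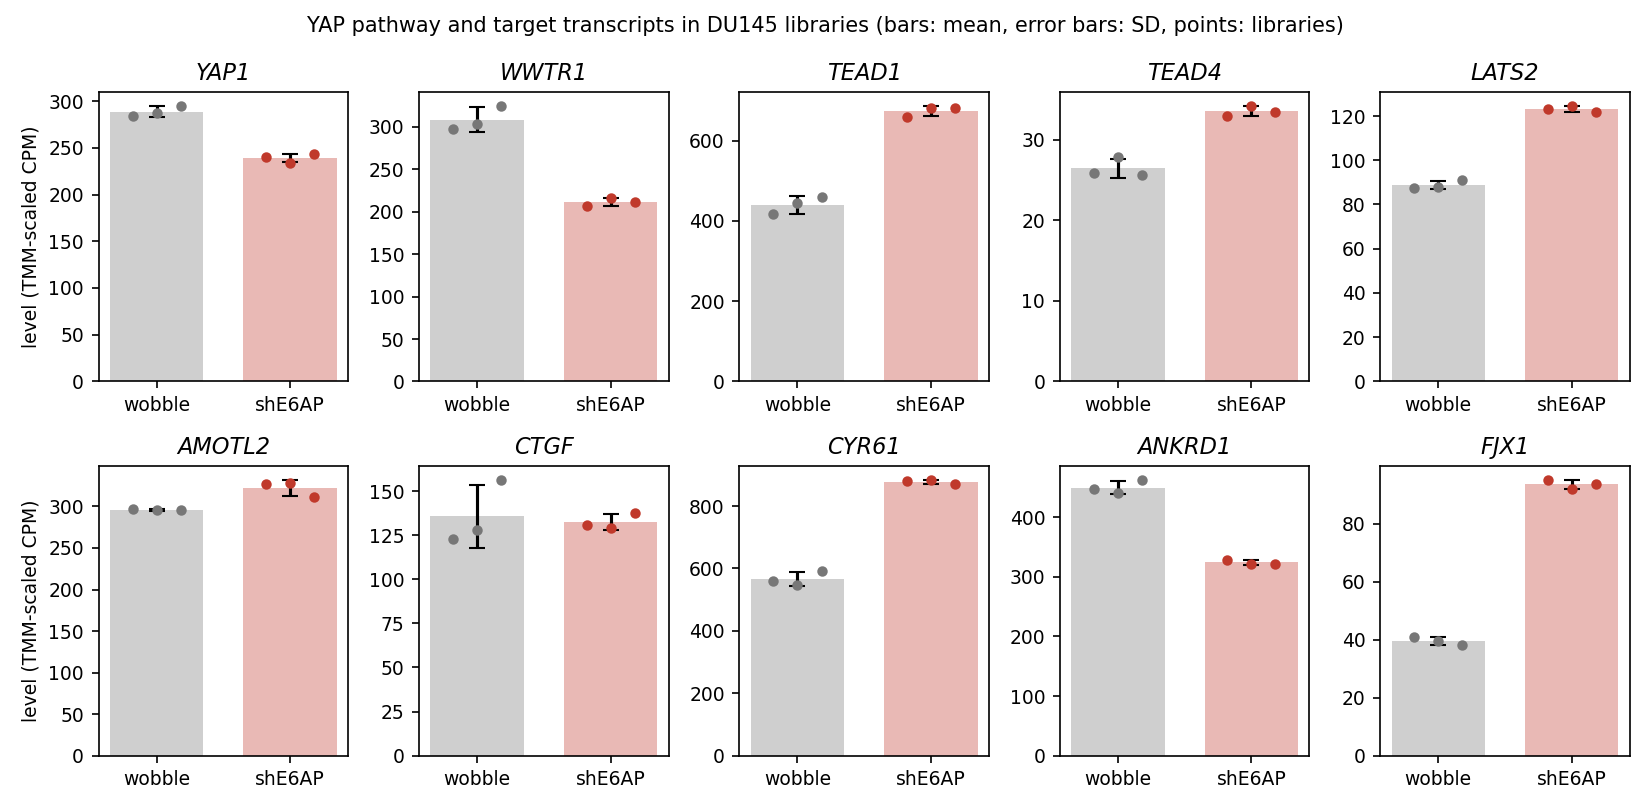
Level in TMM-scaled CPM (vertical axes, each from 0) of the 10 members in the wobble and shE6AP groups; points are libraries 1 to 3 from left to right, bars the mean and error bars the SD over 3 libraries. The groups overlap for CTGF, where wobble library 3 stands at 156 CPM, and for none of the other members.

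The coactivators both fell. Of tested genes, 48.9% had a larger change in either direction than YAP1, and 21.3% a larger one than WWTR1. YAP1 stood at 284, 287 and 295 CPM in wobble libraries 1 to 3 and at 240, 234 and 243 CPM in shE6AP. Every shE6AP library was below every wobble library, at 82.8% of the wobble mean (log2 fold change -0.27, SE 0.0321; adjusted p = 7.98e-10 in edgeR's quasi-likelihood test). WWTR1 stood at 297, 304 and 325 CPM in wobble and at 207, 217 and 211 CPM in shE6AP, with no overlap. The TAZ transcript thus remained at 68.5% of its wobble mean (log2 fold change -0.55, SE 0.0343; adjusted p = 5.38e-18). The log2 ratio of WWTR1 to YAP1 reads within a library was 0.07, 0.08 and 0.14 in wobble and -0.22, -0.11 and -0.20 in shE6AP, so WWTR1 had more reads than YAP1 in each wobble library and fewer in each shE6AP library. The difference was -0.27 (two-sided exact permutation p = 0.1, which is the lowest value 3 against 3 libraries can reach, and 0.1 after Benjamini-Hochberg adjustment over the 5 ratios computed).

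TEAD1 and TEAD4, the DNA-binding partners, rose while the coactivators fell. TEAD1 stood at 416, 444 and 461 CPM in wobble and at 660, 681 and 682 CPM in shE6AP. All shE6AP libraries lay above all wobble libraries (log2 fold change 0.62, SE 0.0337; adjusted p = 5.57e-20 in edgeR's quasi-likelihood test). TEAD4, at 25.8, 27.8 and 25.6 CPM in wobble and 32.9, 34.2 and 33.4 CPM in shE6AP, rose less, with a log2 fold change of 0.34 (SE 0.0496; adjusted p = 9.79e-08). Of tested genes, 17.4% had a larger change in either direction than TEAD1, and 39.4% a larger one than TEAD4. The relatives of TEAD1 and TEAD4, which are no members, moved little. TEAD3 rose from 32.5 ± 0.788 to 36.5 ± 1.47 CPM (log2 fold change 0.16), and TEAD2 did not pass at -0.08 (95% confidence interval -0.17 to 0.02; adjusted p = 0.175 in edgeR's quasi-likelihood test). TEAD1 was the most abundant TEAD transcript. Per kilobase of exon it made up 55.0%, 55.8% and 57.3% of the summed TEAD level in wobble libraries 1 to 3, and 63.3%, 63.2% and 64.4% in shE6AP. The share of TEAD2 was 14.8 ± 0.319% in wobble and 10.4 ± 0.293% in shE6AP, that of TEAD3 14.0 ± 0.703% and 11.6 ± 0.364%, and that of TEAD4, whose level rose, 15.2 ± 0.712% and 14.3 ± 0.0411% (SD, n = 3). Each of the 4 shares differed without overlap (exact two-sided permutation p = 0.1, the smallest possible here, also after Benjamini-Hochberg adjustment over the 4 shares), with the full GENCODE exon lengths and with those of the basic transcripts. Because the shares of a library sum to the whole, a higher TEAD1 share lowers the others, and the 4 are not separate results. The log2 ratio of TEAD1 to TEAD4 reads was 4.06 ± 0.0945 in wobble and 4.33 ± 0.0184 in shE6AP (exact two-sided permutation p = 0.1).

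**Figure D2:**
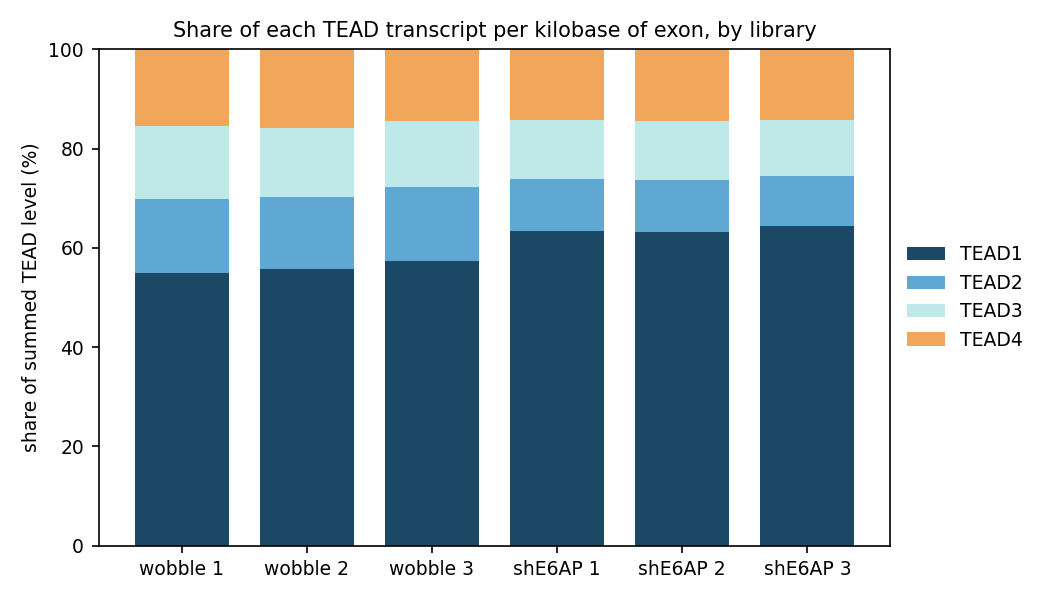
Share in percent (vertical axis) of each TEAD transcript in the summed TEAD level per kilobase of exon, stacked for each of the 6 libraries (horizontal axis). TEAD1 takes 55.0% to 57.3% in the wobble libraries and 63.2% to 64.4% in the shE6AP libraries.

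LATS2, the kinase that phosphorylates YAP and TAZ, rose. It stood at 87.5, 88.0 and 90.9 CPM in wobble and at 123, 125 and 122 CPM in shE6AP. The groups did not overlap (log2 fold change 0.47, SE 0.0352; adjusted p = 1.46e-15 in edgeR's quasi-likelihood test). Its relative LATS1, no member, rose from 42.8 ± 1.47 to 45.9 ± 0.694 CPM (log2 fold change 0.10; adjusted p = 0.0381 in the same test). That call was lost in DESeq2 (adjusted p = 0.101) and in edgeR's test with no low-count filter (adjusted p = 0.203). It was also lost without any 1 of the libraries other than wobble library 3 (adjusted p of 0.052 to 0.205). In all, LATS1 passed in 8 of 19 alternatives, which include tests for a larger fold. The log2 ratio of LATS2 to LATS1 reads was 1.05 ± 0.0271 in wobble and 1.43 ± 0.0345 in shE6AP, with no overlap between groups (exact two-sided permutation p = 0.1).

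AMOTL2, an angiomotin-like scaffold that binds YAP, changed least among the members that passed. It stood at 296, 295 and 295 CPM in wobble and at 327, 328 and 311 CPM in shE6AP. The libraries did not overlap, but the log2 fold change was 0.12 (SE 0.032, 95% confidence interval 0.06 to 0.19; adjusted p = 0.000942 in edgeR's quasi-likelihood test), and 74.5% of tested genes had a larger change in either direction. AMOTL1 fell from 59.4 ± 1.36 to 55.0 ± 1.95 CPM (log2 fold change -0.11; adjusted p = 0.0164), a call lost under upper-quartile scaling (0.0724), in DESeq2 (0.0672) and when either shE6AP library 1 (0.121) or wobble library 3 (0.0536) was left out. AMOT did not pass (log2 fold change 0.11, 95% confidence interval -0.02 to 0.24; adjusted p = 0.153). The log2 ratio of AMOTL2 to AMOTL1 reads was 2.32 ± 0.0343 in wobble and 2.55 ± 0.0697 in shE6AP, without overlap (exact two-sided permutation p = 0.1).

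The target genes did not move as a block. CYR61 and CTGF encode secreted matricellular proteins of the CCN family and are among the best-known YAP targets. CYR61 stood at 559, 547 and 592 CPM in wobble and at 880, 882 and 871 CPM in shE6AP. Each shE6AP library lay far above the wobble libraries (log2 fold change 0.63, SE 0.0325; adjusted p = 5.35e-21 in edgeR's quasi-likelihood test). CTGF stood at 123, 128 and 156 CPM in wobble and at 131, 129 and 137 CPM in shE6AP. All shE6AP libraries lay inside the wobble range, whose upper end is wobble library 3. The log2 fold change was -0.03 (SE 0.0482, 95% confidence interval -0.13 to 0.06; adjusted p = 0.567). Without wobble library 3 it was 0.07 (adjusted p = 0.0975), and without wobble library 1 it was -0.11 and passed (adjusted p = 0.0367), so neither the sign nor the call for CTGF is settled by these libraries. The log2 ratio of CTGF to CYR61 reads was -2.18, -2.09 and -1.92 in wobble and -2.75, -2.77 and -2.66 in shE6AP, lower in each shE6AP library, with a difference of -0.66 (exact two-sided permutation p = 0.1) that ran from -0.72 to -0.59 when each library was left out in turn.

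ANKRD1, a nuclear ankyrin repeat protein of stretched muscle that is also a common readout of YAP activity, fell. It stood at 447, 440 and 462 CPM in wobble and at 328, 322 and 322 CPM in shE6AP. Every shE6AP library was lower, at 72.0% of the wobble mean (log2 fold change -0.47, SE 0.0317; adjusted p = 4.69e-17 in edgeR's quasi-likelihood test). FJX1, a secretory pathway protein whose fly counterpart acts with the Fat cadherin upstream of Hippo, showed the largest change of the members. It stood at 40.8, 39.5 and 38.1 CPM in wobble and at 94.9, 91.9 and 93.8 CPM in shE6AP. Its level in shE6AP was 2.37 times that in wobble (log2 fold change 1.24, SE 0.0398; adjusted p = 2.45e-28), and 4.19% of tested genes had a larger change.

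Wobble library 3 was the highest of its group for 7 of the 10 members, and for 35.4% of all tested genes. Among genes at or above the lowest member's mean CPM it was the highest for 39.7%, and wobble library 1 for 43.4%. Without wobble library 3, 9 members still passed, 6 higher and 3 lower.

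**Figure D3:**
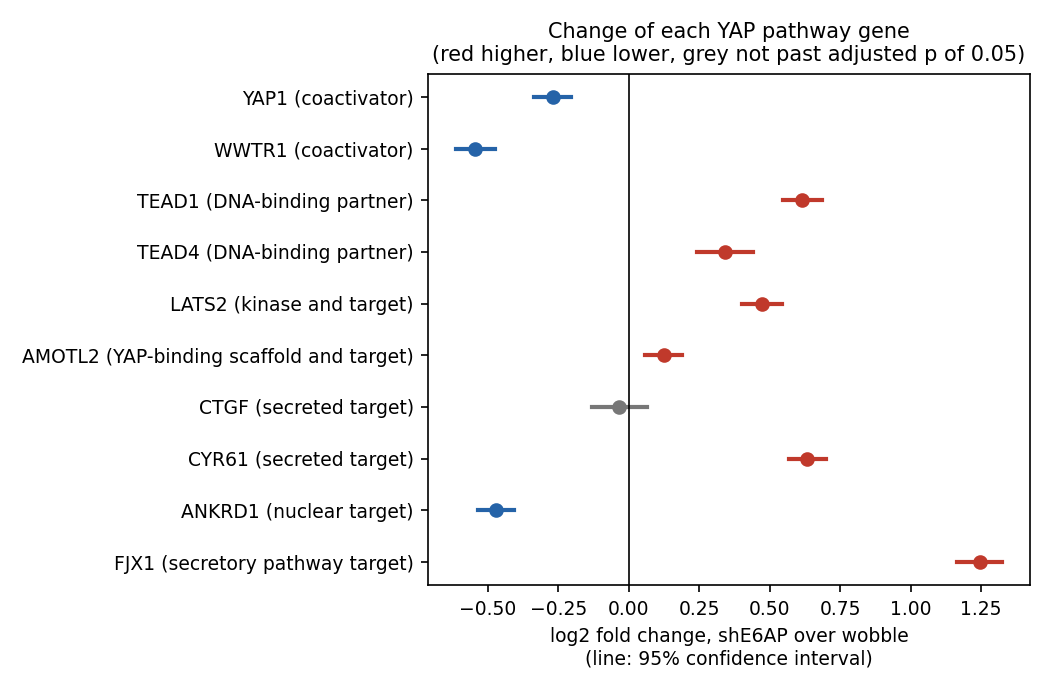
Change of each member (vertical axis, with its role) as log2 of shE6AP relative to wobble (horizontal axis); points are edgeR estimates and lines their 95% confidence intervals, red for higher, blue for lower and grey for CTGF, which did not pass. Both coactivators lie left of 0 and both TEADs right of it, and the 4 targets CTGF, CYR61, ANKRD1 and FJX1 spread from -0.47 to 1.24.

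Set on a scale per length (reads per kilobase of exon, scaled to the library, with exon lengths from GENCODE release 29, since the annotation behind the counts is not stated), the members' levels spanned 11.6 ± 0.523 for TEAD4 to 230 ± 9.55 for CYR61 in wobble (SD, n = 3). In wobble the order from the top was CYR61, ANKRD1, CTGF, AMOTL2, YAP1, TEAD1, WWTR1, FJX1, LATS2 and TEAD4. Neighbours in that order had library ranges that did not overlap, except CYR61 with ANKRD1 (227 ± 5.73) and FJX1 (16.1 ± 0.545) with LATS2 (15.9 ± 0.331). In shE6AP the order was CYR61, ANKRD1, TEAD1, CTGF, AMOTL2, FJX1, YAP1, WWTR1, LATS2 and TEAD4, and of these neighbours only FJX1 (38.2 ± 0.617) and YAP1 (38.0 ± 0.705) overlapped. CYR61 and ANKRD1, which overlapped in wobble, stood at 357 ± 2.32 and 164 ± 1.89 in shE6AP. TEAD1 moved from below YAP1 (42.8 ± 2.18 against 45.8 ± 0.903) to above it, at 65.6 ± 1.25.

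Part of that order depends on which transcripts give the exon length. With the basic GENCODE transcripts, an alternative added after seeing the data, the exon length of WWTR1 was 5367 in place of 8413 bases, and its level in wobble became 57.5 ± 2.69 in place of 36.7, above that of YAP1 (51.3 ± 1.01). CYR61 then lay above ANKRD1 in wobble without overlap, and AMOTL2 overlapped CTGF and CTGF overlapped WWTR1. In shE6AP, FJX1 then overlapped WWTR1 and no longer YAP1, whose lowest library (41.6) was above the highest of WWTR1 (40.4). Under both lengths CYR61 and ANKRD1 were the highest members and TEAD4 the lowest in both groups, FJX1 and LATS2 overlapped in wobble, and TEAD1 was below YAP1 in wobble and next after ANKRD1 in shE6AP. The change of a gene between groups does not use its length.

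**Figure D4:**
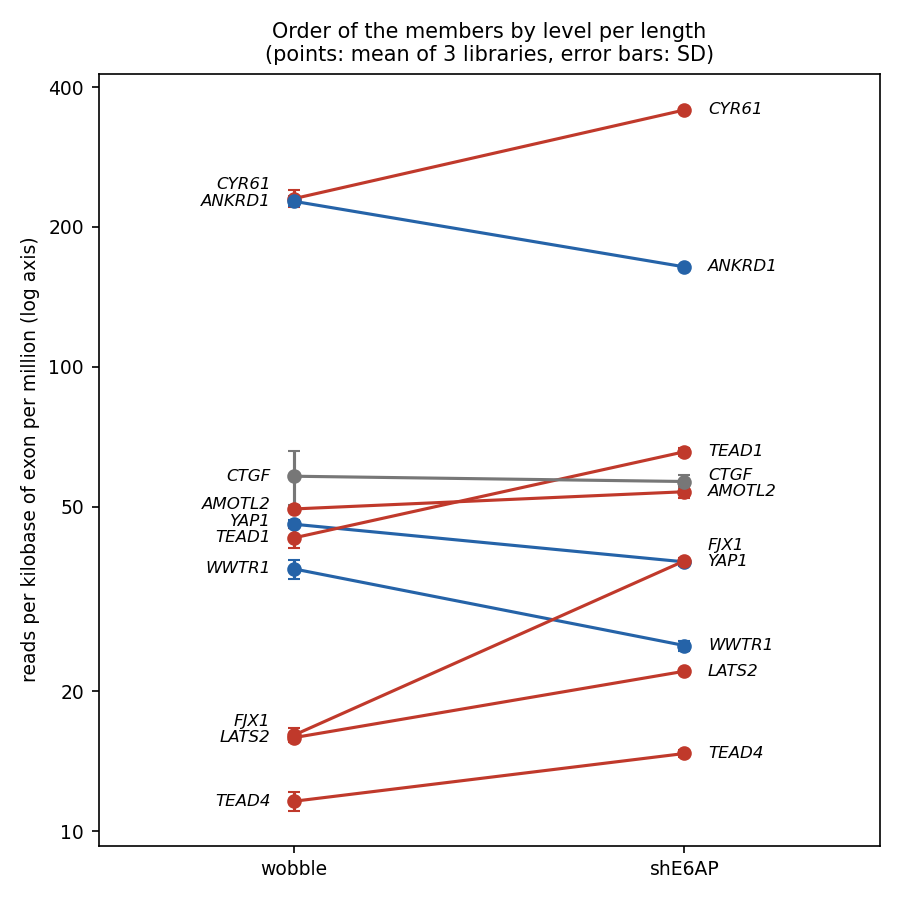
Level per length in reads per kilobase of exon scaled to the library (vertical log axis) of the 10 members in wobble and shE6AP (horizontal axis), with the full GENCODE exon lengths; points are means of 3 libraries, error bars the SD, and lines join the values of a gene, in red for members that rose, blue for those that fell and grey for CTGF. The lines of CYR61 and ANKRD1 part from 230 and 227 in wobble, and FJX1 moves from beside LATS2 to beside YAP1, or to beside WWTR1 with the basic lengths.

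The rest of the Hippo pathway was read from lists that include some of the members. Of the 7 genes of the kinase cassette, 3 rose, 2 fell and 2 did not pass, a share of 71.4% called against 77.7% of all genes at or above the lowest member's mean CPM. LATS1, counted among the 3, passed in 1 of the 6 fits that left out a library. SAV1, the scaffold of the upstream kinases, fell from 214 ± 5.13 to 126 ± 1.74 CPM (log2 fold change -0.76; adjusted p = 2.94e-23 in edgeR's quasi-likelihood test). The MOB1 adaptors moved apart, MOBKL1B (now MOB1A) with a log2 fold change of -0.18 and MOBKL1A (now MOB1B) with 0.15. STK3 and STK4, the kinases SAV1 binds, did not pass (log2 fold change -0.05 and -0.04; adjusted p = 0.406 and 0.432). LATS1 and LATS2 are given above.

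Among 18 upstream kinases and scaffolds, none of them a member, 4 rose, 9 fell and 5 did not pass (median -0.11), and 72.2% were called against 59.0% of all tested genes. Of the 15 at or above the lowest member's mean CPM, 73.3% were called against 77.7%. The 4 that rose were WWC1, or KIBRA, from 95.2 ± 1.58 to 158 ± 1.4 CPM (log2 fold change 0.73), FRMD6 (0.30), NF2, which encodes merlin (0.13), and TAOK2 (0.12). The lower genes included kinases that can phosphorylate LATS or STK proteins, with TNIK falling from 46.1 ± 1.92 to 28.7 ± 0.735 CPM (-0.69), TAOK3 from 70.4 ± 1.17 to 47.0 ± 4.25 CPM (-0.59), MAP4K4 from 112 ± 2.81 to 83.2 ± 3.32 CPM (-0.43) and MAP4K3 by 0.23 on the log2 scale. Of the 5 tested genes for angiomotins, PTPN14 and the VGLL cofactors, 2 rose (AMOTL2 and PTPN14), 2 fell (VGLL4 and AMOTL1) and AMOT did not pass. Thus 80% were called against 59.0% of all tested genes. The 4 at or above the lowest member's mean CPM were all called, where 77.7% of all genes at those levels were. AMOTL1, counted among those that fell, passed in 11 of 19 alternatives. VGLL4, which competes with YAP for TEADs, fell from 50.3 ± 1.19 to 32.6 ± 0.896 CPM (log2 fold change -0.63; adjusted p = 2.14e-16), and PTPN14, a phosphatase that binds YAP, rose from 90.0 ± 3.9 to 135 ± 11.5 CPM (0.58; adjusted p = 1.38e-15). VGLL1 and VGLL3 had too few reads to be tested, and VGLL2 was not analysed here.

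A signature of 22 genes often used as a readout of YAP and TAZ, from general knowledge, holds 6 of the members (LATS2, AMOTL2, CTGF, CYR61, ANKRD1 and FJX1). Of its 21 tested genes, 13 rose, 4 fell and 4 did not pass, with a median log2 fold change of 0.36 against 0.01 over all tested genes. Of the 19 at or above the lowest member's mean CPM, 78.9% were called, near the 77.7% of all genes at those levels. Of the 15 that are no members, 9 rose, 3 fell and 3 did not pass, with a median of 0.36. Over all tested genes, 28.6% passed as higher and 30.4% as lower. AXL, a receptor tyrosine kinase, rose from 547 ± 17.6 to 1137 ± 19.8 CPM (log2 fold change 1.06), CCDC80, a matrix protein, from 22.7 ± 0.124 to 59.4 ± 2.19 CPM (1.38), F3, tissue factor, from 29.7 ± 0.716 to 59.8 ± 2.55 CPM (1.01), and IGFBP3, which binds insulin-like growth factors, from 0.93 ± 0.125 to 8.87 ± 0.384 CPM (3.25). MYOF, a membrane repair protein, fell with ANKRD1, from 1275 ± 21.4 to 871 ± 23 CPM (-0.55), as did RBMS3, an RNA-binding protein, from 14.4 ± 0.378 to 8.21 ± 0.885 CPM (-0.82), and NT5E, the ecto-nucleotidase CD73, from 266 ± 4.75 to 219 ± 2.74 CPM (-0.29). The adjusted p of these 7 genes ran from 5.12e-29 for AXL to 2.05e-10 for NT5E (edgeR's quasi-likelihood test). CTGF, CRIM1, ARHGEF17 and TGFB2 did not pass, with log2 fold changes of -0.03, -0.02, -0.07 and -0.02.

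In the CCN family, of which CYR61 and CTGF are members here, 2 of 5 tested genes rose, 1 fell and 2 did not pass, so that 60.0% were called against 59.0% of all tested genes. WISP2 fell from 165 ± 4.46 to 88.8 ± 3.71 CPM (log2 fold change -0.89; adjusted p = 2.17e-24 in edgeR's quasi-likelihood test). NOV rose with CYR61 but from a low level, with 17 reads in each wobble library and 35, 30 and 38 in shE6AP (log2 fold change 1.23, SE 0.234; adjusted p = 1.38e-05). WISP3, at 7 to 17 reads a library, did not pass (adjusted p = 0.345), and WISP1 was not analysed here.

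Several YAP targets, CYR61, CTGF and ANKRD1 among them, are also described as responding to SRF and its actin-sensing MRTF cofactors. Of 13 tested SRF and MRTF targets, 3 rose, 8 fell and 2 did not pass, with a median of -0.16. Of these, 84.6% were called against 59.0% of all tested genes, and of the 10 at or above the lowest member's mean CPM, 90.0% against 77.7%. ACTG1, cytoplasmic gamma actin, fell from 1938 ± 33.1 to 1215 ± 26.1 CPM (log2 fold change -0.67), VCL, the focal adhesion protein vinculin, from 594 ± 14.3 to 410 ± 6.4 CPM (-0.53), CNN2, a calponin, from 251 ± 3.12 to 184 ± 1.43 CPM (-0.45) and ACTB, beta actin, by 0.16 on the log2 scale. TAGLN, a smooth muscle actin-binding protein, rose from 9.12 ± 0.379 to 15.9 ± 1.71 CPM (0.81), FHL2 by 0.44 and MYL9, a myosin light chain, by 0.33 on the log2 scale.

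**Figure D5:**
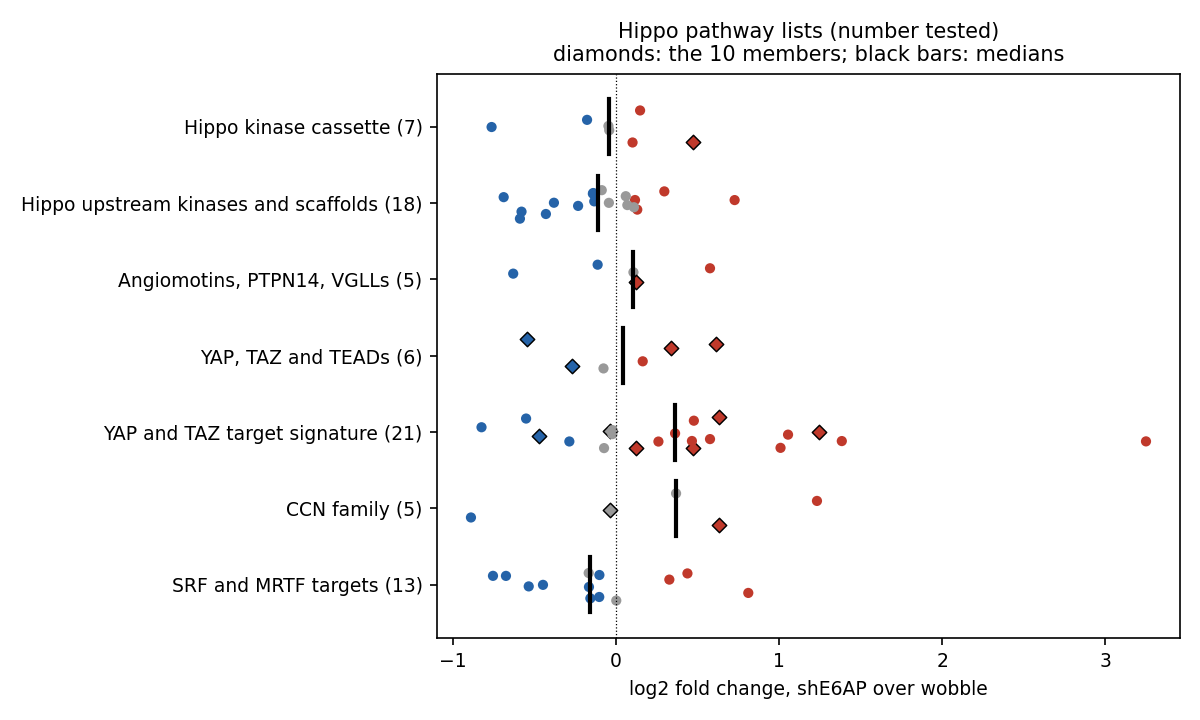
Change of the tested genes of 7 pathway lists (vertical axis, number tested in brackets) as log2 of shE6AP relative to wobble (horizontal axis); each symbol is a gene, diamonds the 10 members, red where higher, blue where lower and grey where the gene did not pass, and black bars are list medians. Each list holds genes on both sides of 0; the CCN median is the value of WISP3, which did not pass and has few reads, and it lay between 0.08 and 0.62 when each library was left out in turn.

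The members lie on chromosomes 1, 3, 6, 10, 11, 12 and 13, and the nearest tested gene on each side was read from the RefSeq gene order. Beside the 9 members that passed, 16 of 18 neighbours passed too, 8 of them in the member's direction, where 59.0% of all tested genes passed, 28.6% higher and 30.4% lower. Among all genes at or above the lowest member's mean CPM, a level that many but not all neighbours reached, 77.7% passed. Both neighbours of WWTR1 fell with it (TM4SF1 by 0.61 and COMMD2 by 0.35 on the log2 scale). Both neighbours of CYR61 rose with it (DDAH1 by 0.77 and ZNHIT6 by 0.17), as did both of AMOTL2 (RYK by 0.10 and ANAPC13 by 0.23). Around TEAD1 both went the other way (PARVA with a log2 fold change of -0.63 and RASSF10 of -0.72), and so did both around ANKRD1 (RPP30 with 0.29 and PCGF5 with 0.15). BIRC3, beside YAP1, rose by 0.24, and C11orf70 on its other side did not pass (-0.07). Beside LATS2, SAP18 rose by 0.21 and the pseudogene RPSAP54 had a log2 fold change of -0.79; beside TEAD4, TSPAN9 rose by 0.17 and TULP3 had -0.18. TRIM44, beside FJX1, had a log2 fold change of -0.18, and SLC1A2 on the other side did not pass (0.18). CTGF, which did not pass, lies between ENPP1 and MOXD1, and both of those fell, by 0.63 and 1.19 on the log2 scale.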

How the data were processed

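RNA of 6 libraries was extracted with TRIzol and sequenced after preparation with the TruSeq RNA kit, version 2, per the labels. The submitters' processing notes name TopHat2 2.0.13, Bowtie2, HTSeq and hg19. Neither the gene annotation nor the strandedness of counting is given in the sources used here. The deposited values are raw counts per gene. Rows for no feature (14.6% to 16.0% of a library's counts) and ambiguous reads (2.05% to 2.21%), 1 unnamed row (at most 4.59e-05%) and 1 row without values were left out.

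All 6 libraries entered edgeR 4.0.16 (R 4.3.3) with filterByExpr and TMM scaling; the quasi-likelihood test had group as its only term, and p-values were Benjamini-Hochberg adjusted over all tested genes. The SE was taken from the log2 fold change and F. Ratios between genes used log2 of reads plus 0.5. Alternatives used RLE, upper-quartile or no scaling, DESeq2 1.42.0, limma-voom (limma 3.58.1), other filters, a replicate block, glmTreat, an assumed spread, a prior count of 2 and leaving out each library. The edgeR fit was tested on simulated counts in which far fewer genes were changed than were called here. The ratios, shares, levels per length and motif search were not tested on simulated data. Chi-square per gene between libraries of a group was 1.76 to 3.52, above counting noise, so none was merged. Exons of AMOTL2 overlap RPL39P5, which had at most 1 read a library.

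The members and lists were chosen with earlier results of these data known. Named genes were UBE3A, the members, their paralogs, up to 4 further passing genes of each list in each direction by smallest p, and each member's nearest tested neighbours; marker genes and genes that complete a small count were named after their values were seen. Levels per length used the union of GENCODE release 29 exons, and the basic transcripts as an alternative added after seeing the data. RefSeq gene order matched 19641 of 33835 symbols.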

Additional observations from a re-analysis of the deposited data

How the results depend on the processing

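Of the members, 9 (6 higher, 3 lower) passed under RLE, upper-quartile and no scaling, DESeq2, limma-voom, the robust fit, both other filters and 5 of the 6 fits that left out a library. Over the alternatives FJX1 passed in all 19, with log2 fold changes of 1.22 to 1.27. Leaving out 1 library in turn moved CTGF from -0.1057 (without wobble library 1, adjusted p = 0.0367, with 10 members passing) to 0.07294 (without wobble library 3, the sign reversed, adjusted p = 0.0975); its adjusted p over all alternatives ran from 0.0367 to 1. The cause was not tested.

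A fold above 1.2 in glmTreat left 5637 genes, 29.0% of those tested. It left 2 of 7 genes of the kinase cassette, 5 of 18 upstream genes and 2 of 5 of the angiomotin and VGLL list. Of the 6 genes of YAP, TAZ and TEADs, 5 of which had passed the test between groups, it left 2. It left 14 of 21 signature genes, 3 of 5 CCN genes and 7 of 13 SRF targets. YAP1 (-0.2712, adjusted p = 0.417), TEAD4 (0.341, 0.06) and AMOTL2 (0.1231, 1) no longer passed. A fold above 1.5 left 1806 genes, 9.29% of those tested. It left 1 gene of the kinase cassette, 2 upstream genes, 6 of the signature, 2 CCN genes and 2 SRF targets. It left 0 of the angiomotin and VGLL list and 0 of YAP, TAZ and TEADs. Of the members it left 1. Those lost were YAP1, TEAD4 and AMOTL2 at the same values, WWTR1 (-0.546), TEAD1 (0.6152), LATS2 (0.4721), CYR61 (0.6335) and ANKRD1 (-0.4727), with adjusted p of 0.186 or more. These tests ask for a larger fold by construction.

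With an assumed biological coefficient of variation of 0.1 in place of the measured spread, 6743 of 19433 tested genes and 7 of 10 members passed. Among the lists, 2 of 7 cassette genes, 6 of 18 upstream genes and 2 of 5 of the angiomotin and VGLL list passed. So did 3 of 6 of YAP, TAZ and TEADs, 15 of 21 signature genes, 3 of 5 CCN genes and 7 of 13 SRF targets. YAP1 (-0.2716, adjusted p = 0.061) and AMOTL2 (0.1231, 0.452) were lost. At 0.2, 2237 of 19433 tested genes passed. They held 1 cassette gene, 2 upstream genes, 6 of the signature, 2 CCN genes and 2 SRF targets. They held 0 of the angiomotin and VGLL list and 0 of YAP, TAZ and TEADs. Of the members, 1 passed. Those lost were YAP1 (-0.2716), WWTR1 (-0.5456), TEAD1 (0.6151), TEAD4 (0.3427), LATS2 (0.472), AMOTL2 (0.1231), CYR61 (0.6334) and ANKRD1 (-0.473), with adjusted p of 0.0601 or more.

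The labels do not say whether same-numbered libraries are paired. Their deviations from the group means correlated at 0.0438, 0.0166 and 0.0372, against -0.0325 to -0.00567 for libraries of different numbers. Each library thus correlated best with its own number, though weakly. Deviations cancel within a group, so positive values for same numbers make those for different numbers negative on balance. With the replicate block, 11979 genes and 9 members (6 higher, 3 lower) passed, YAP1 at -0.2711 and TEAD1 at 0.6163, and the 5 ratios kept their values with an exact permutation p of 0.25, the smallest 3 pairs allow. The ratios kept their direction in all 8 alternatives. With the basic exon set and without each library in turn, both added after seeing the data, the TEAD1 share was 7.13 to 8.28 percentage points higher in shE6AP and the 4 TEAD shares kept their direction.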
